A study of Mus musculus with 12 samples.

Results

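The 9 genes described here (Dazl, Boll, Cpeb1, Cpeb2, Ybx2, Ybx3, Pum2, Msi1 and Msi2) encode RNA-binding proteins that control the translation and storage of messenger RNA in germ cells. They were chosen by gene symbol from a table of 20718 genes, and all 9 were found in it. RNA was sequenced from testes of male mice, in 4 groups of 3 libraries, 12 in all. The strain is IRC mouse in the labels and ICR in the methods. The testes had been injected with lentivirus at 4 weeks of age, and the mice were raised for 5 weeks, mated for 4 days and kept for another 4 days before sampling. The virus of the F0_5251KD group carried 3 short hairpin RNAs against the long non-coding RNA lncRNA5251 in the LV3 backbone, and that of the F0_3NC group carried the negative control in the same backbone. The virus of the F0_5251OV group carried full-length lncRNA5251 in the LV5 backbone, and the F0_5NC group received the empty LV5 vector. Every group was thus injected with a virus, no library came from an uninjected testis, and each backbone has its own control. The promoter that drives the vectors, and so the cells that express the cargo, are not given in the sources used here. No label ties a library to an animal, so a p-value reflects library-to-library spread, which may be technical. Fewer cells of a type and less RNA per cell cannot be told apart in whole testis.

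Transcription slows and then stops as a spermatid condenses its nucleus, so much of the protein of late sperm development is made from messenger RNA that was transcribed earlier and held back. Proteins that bind the 3′ untranslated region (3′ UTR) decide when such a message is translated. Dazl and Boll belong to the DAZ family, Dazl acting from the premeiotic germ cell onwards and Boll in meiosis and in spermatids. Cpeb1 and Cpeb2 are cytoplasmic polyadenylation element binding proteins, which regulate the length of the poly(A) tail and translation. Ybx2 and Ybx3 are Y-box proteins that package stored messages, protamine messages among them. Pum2 is a Pumilio repressor, and Msi1 and Msi2 are the Musashi proteins, which bind short elements in 3′ UTRs and were first known from progenitor cells.

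Letters that the Pumilio, Cpeb, Musashi and Y-box proteins are known to bind were looked for in the annotated 3′ UTRs of GENCODE M21. The longest coding 3′ UTR of each gene was used, sense strand only, since the proteins bind RNA. No letters for the DAZ family (Dazl and Boll) were searched. Each of the 9 genes carries at least 1 match to the searched letters in its own annotated 3′ UTR, and only some of these sites are shown. The letters were set before the search, so the sites found do not show what a protein prefers to bind. The capitals mark the match, the other letters are the flanking bases, and positions are in GRCm38 (mm10). The letters of the Pumilio element are TGTANATA, with any base at N, and those of the cytoplasmic polyadenylation element are TTTTAT. The Musashi element was searched as GTTAGT and the Y-box recognition element as TCCATCA.

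Pum2 3′ UTR, Pumilio element (chr12:8750154-8750183, plus strand): gtttatagagaTGTATATAgaattatagtt
Pum2 3′ UTR, Pumilio element, site 2 (chr12:8750407-8750436, plus strand): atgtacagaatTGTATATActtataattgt
Boll 3′ UTR, cytoplasmic polyadenylation element (chr1:55346313-55346342, minus strand): tttgcatagtccTTTTATgaaatattagat
Boll 3′ UTR, cytoplasmic polyadenylation element, site 2 (chr1:55346284-55346313, minus strand): ttcctatagaccTTTTATtaaaatatcctt
Boll 3′ UTR, cytoplasmic polyadenylation element, site 3 (chr1:55346264-55346293, minus strand): aaatatcctttcTTTTATgtaataaattta
Dazl 3′ UTR, Musashi element (chr17:50280275-50280304, minus strand): atttttagttttGTTAGTctattgtatttc
Msi1 3′ UTR, Musashi element (chr5:115455275-115455304, plus strand): agatgcgcggctGTTAGTgtttgttgttgg
Ybx3 3′ UTR, Y-box recognition element (chr6:131365209-131365237, minus strand): gccagcaagtgTCCATCAagctgtatccc
Prm1 3′ UTR, Y-box recognition element (chr16:10796449-10796477, minus strand): agaatagcaagTCCATCAaaactcctgcg

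Boll had 3 cytoplasmic polyadenylation elements in an annotated 3′ UTR of 109 bases. Of the 18183 3′ UTRs of at least that length, 6.09% had a match in their opening 109 bases. The Boll sites lie at chr1:55346264-55346342 on the minus strand, far from the RefSeq end of the gene at 55243566. Whether this 3′ UTR belongs to the Boll message that was measured was not tested. Cpeb2, with a 3′ UTR of 3778 bases, had 20 cytoplasmic polyadenylation elements (5.29 per kb, against 1 per kb over the 3′ UTRs of 19266 genes in the table). The same element was found 11 times in Msi2, 5 times each in Dazl and Pum2, 4 times in Msi1 and 2 times in Cpeb1. Ybx2 and Ybx3 had 1 each. At the lengths of these genes other than Cpeb2, 26.9% (Ybx2) to 96.7% (Msi2) of 3′ UTRs had a match. Pum2 had 2 Pumilio elements in 2861 bases, and 41.9% of 3′ UTRs at least as long had a match in their opening 2861 bases. Cpeb1, Cpeb2 and Msi1 each had 1 Pumilio element and Msi2 had 3, and Dazl, Boll, Ybx2 and Ybx3 had no match. A Musashi element was found in Dazl and in Msi1 only among the 9 genes, once each, beside shares of 28.6% and 29.2% at the same lengths. Prm1, a protamine that packs sperm DNA and is a known message of the Y-box proteins, had the Y-box element 18 bases after its stop codon. Of 3′ UTRs at least as long, 1.45% had a match in the same length. The other target messages searched, Prm2, Smcp, Sycp1, Sycp3, Ddx4 and Tex19.1, had no Y-box element. Ybx3 had 1 Y-box element (4.64% at its length) and Msi2 had 1 (36.1%). The shares count 3′ UTRs with at least 1 match in the opening bases, so they leave out the ends of longer 3′ UTRs. They were not matched for base composition. These matches are a description of the letters and do not show that a site is bound.

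In GRCm38 (RefSeq coordinates) Ybx2 lies at chr11:69935805-69941604, Ybx3 at chr6:131364858-131388450, Boll at chr1:55243566-55363789, Cpeb2 at chr5:43225349-43289724 and Dazl at chr17:50279393-50293620. Msi2 lies at chr11:88339382-88718306, Pum2 at chr12:8674092-8752583, Msi1 at chr5:115359059-115455698 and Cpeb1 at chr7:81347026-81458001. All 9 genes were detected in all 12 libraries, with levels per transcript length that spanned more than 2 orders of magnitude. Ybx2 was the highest with 1320 ± 155 FPKM (fragments scaled to transcript length and library total, mean ± SD, n = 12 libraries), which placed it at rank 25 of the 20718 genes by mean FPKM, and Ybx3 followed with 906 ± 49.3 FPKM at rank 41. Boll had 84.3 ± 6.04 FPKM, Cpeb2 66.6 ± 4, Dazl 48.4 ± 7.89, Msi2 21.5 ± 1.52, Pum2 15.6 ± 1.66, Msi1 13.8 ± 2.02 and Cpeb1 3.93 ± 0.461. Within its own library Ybx2 was above Ybx3 in 12 of 12 libraries (ratio 1.45), and Ybx3 was above Boll in 12 of 12 with a ratio of 10.76. Of the 8 neighbouring pairs in this order, 7 differed beyond their spread in an exact two-sided sign-flip permutation test on the within-library log2 FPKM, with adjusted p between 7.81e-04 and 0.00112. The smallest p this test can give with 12 libraries is 4.88e-04 before adjustment. Pum2 and Msi1 could not be placed apart: Pum2 was higher in 9 of 12 libraries, with a ratio of 1.14 and an adjusted p of 0.0698 in the exact test. The plot of FPKM by gene shows this order and the steps in it.

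**Figure D1:**
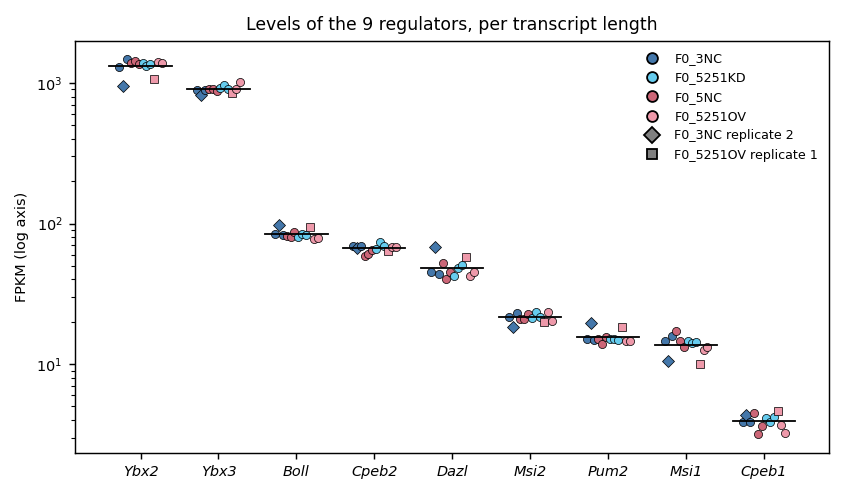
FPKM (log axis) of the 9 genes in the 12 libraries, with 1 point per library coloured by group and a line at the mean. Ybx2 and Ybx3 lie more than 10-fold above Boll, the next gene, while Pum2 (15.6 FPKM) and Msi1 (13.8 FPKM) overlap.

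Some members have relatives outside the 9 genes, whose levels are given for comparison. Ybx2 and Ybx3 stood beside Ybx1, the broadly expressed Y-box protein, which had between 807 ± 16.5 (F0_5NC) and 844 ± 20.6 FPKM (F0_5251OV, mean ± SD, n = 3). Cpeb2 was the most abundant of the 4 Cpeb genes, since Cpeb3 had between 21.4 and 22.8 FPKM and Cpeb4 between 10 and 11.3 FPKM as group means, against 61.4 to 69.6 for Cpeb2 and 3.76 to 4.06 for Cpeb1. Boll was above Dazl in FPKM as a group mean in each of the 4 groups, with 82.8 to 88 against 45.8 to 52.5. The known target Prm1 had group means from 11190 to 11820 FPKM, far above any of the regulators.

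Before the groups were compared, the libraries were. Depth was nearly equal, with totals from 15431383 to 16355720 estimated counts, and of the markers of germ cells and somatic cells that are in the table none was at 0 in all libraries. On the first principal component of the log2 CPM values (CPM are counts divided by the TMM-adjusted size of each library), which held 18.7% of the variance, F0_3NC replicate 2 lay at -37.29 and F0_5251OV replicate 1 at -18.86, and the other 10 libraries lay between -3.38 and 17.27. Of the 8 spermatocyte markers, 4 were highest in these same libraries, and their summed level was 1776 and 1656 CPM there against 1286 to 1501 CPM in the other 10. The summed level of the 7 elongated spermatid markers was 10387 and 11073 CPM, against 10672 to 13803 CPM elsewhere, and that of the 8 Sertoli cell markers 642 and 657 CPM, against 780 to 1261 CPM. F0_5NC replicate 1 had the highest Sertoli level (1261 CPM) and a score of -32.04 on the third component, the lowest of all. The part of these differences in the results below was not tested. The relations, the directions of the gene lists and many of the fold changes are given with and without the libraries that stand apart. They were picked from these data and are not a group of the study.

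The members were among the genes that set these libraries apart. Dazl had 191 CPM in F0_3NC replicate 2 and 163 CPM in F0_5251OV replicate 1, and 118 to 144 CPM in the other 10 libraries. Boll had 167 and 161 CPM there, against 122 to 139 CPM. Pum2 had 117 and 109 CPM, against 84.7 to 93.7 CPM. For these 3 genes the 2 libraries were the highest of the 12. Ybx2 went the other way, with 1312 and 1479 CPM against 1848 to 2128 CPM in the other 10. Msi1 had 29.1 and 28 CPM, against 35.2 to 43.9 CPM. Ybx3 had 1379 and 1424 CPM, the lowest of the 12, next to a range of 1431 to 1795 CPM. For these 3 genes the same libraries were the lowest. Over all 16296 genes tested, both libraries were the highest for 14.1% and the lowest for 14.3%. Cpeb2, Msi2 and Cpeb1 did not have both libraries at 1 end. Cpeb1 had 15.8 and 17.8 CPM in them and from 12 to 15.9 CPM in the rest.

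**Figure D2:**
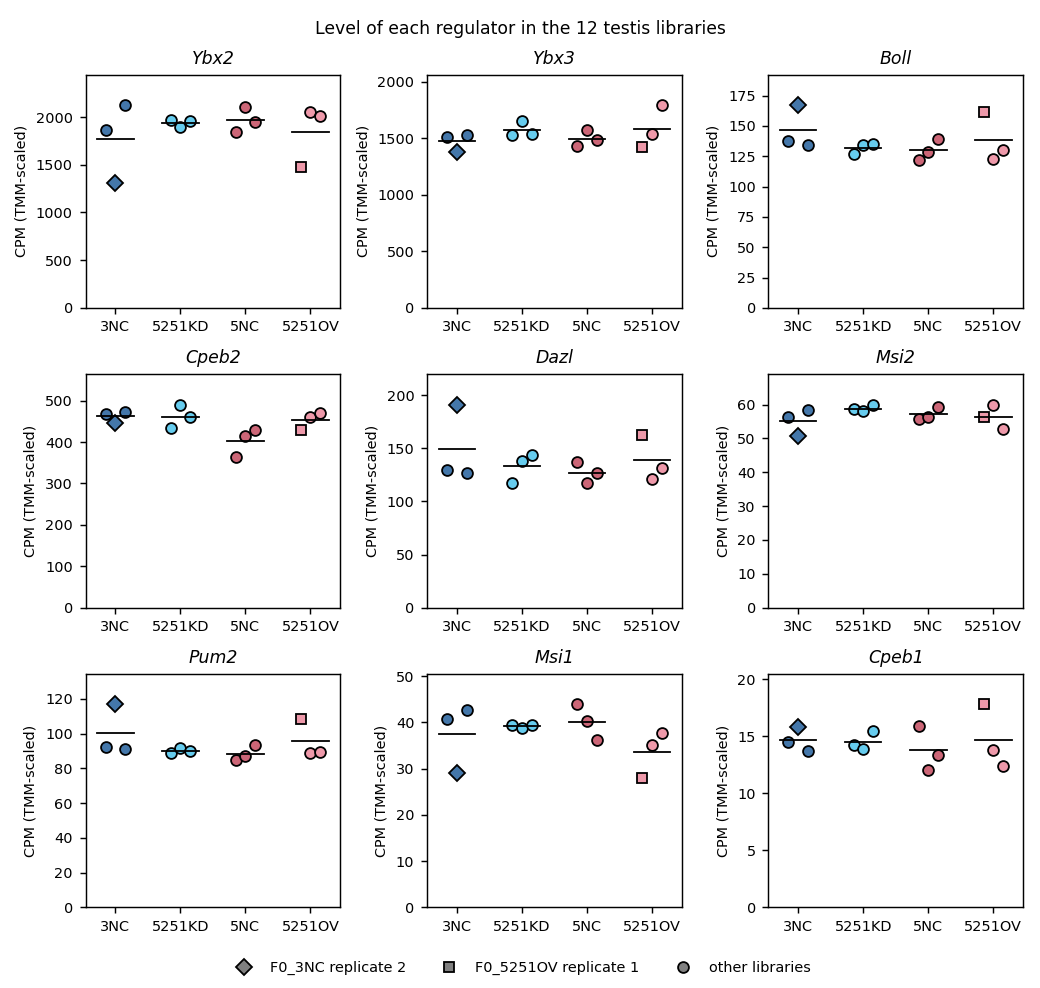
CPM of the 9 genes (vertical axes from 0) by group, 1 point per library, with a line at the group mean. The diamond (F0_3NC replicate 2) and the square (F0_5251OV replicate 1) lie above all other libraries for Dazl, Boll and Pum2 and below all others for Ybx2, Ybx3 and Msi1.

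The spread of each gene was taken with and without these libraries, and the background over all genes was taken with them only. The coefficient of variation over the 12 libraries ran from 4.96% (Msi2) to 15.5% (Dazl), and the median over the 9706 genes that averaged 10 CPM or more was 9.63%. Msi2 was steadier than most genes, since 6.43% of those genes had a smaller coefficient. Dazl varied more than most, with 86.9% of genes below it. Ybx2 (13.1%), Msi1 (13.0%), Cpeb1 (11.3%), Boll (10.3%) and Pum2 (10.1%) also lay above the median, and Cpeb2 (7.62%) and Ybx3 (7.19%) lay below it. In the other 10 libraries alone the coefficient was 2.91% for Pum2, 3.89% for Msi2, 4.57% for Boll, 4.86% for Ybx2 and 6.79% for Dazl, and it was largest for Cpeb1 (8.75%), the gene with the fewest counts (181 to 284 per library).

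The comparison of F0_5251KD with F0_3NC asked whether the virus made to lower lncRNA5251 changed the regulators. Per the study's methods, the efficiency of the short hairpin RNAs was measured in a cell line. The level of lncRNA5251 in these testes was not examined here, for knockdown or for overexpression. None of the 9 genes passed the threshold in either direction (edgeR quasi-likelihood test, adjusted p from 0.897 to 0.999), at a background of 0.0245% of genes called in this comparison (4 of 16296). At an unadjusted p under 0.05 the count was also 0 of 9, against 4.74% of all genes, and DESeq2 called no member either. The log2 fold changes ran from -0.17 to 0.13 with a median of 0, equal to the median over all genes.

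Dazl, which is needed for germ cells to enter and pass meiosis, had 130, 191 and 127 CPM in F0_3NC and 118, 138 and 144 CPM in F0_5251KD. Its groups overlapped, and the log2 fold change was -0.17 (SE 0.151, 95% interval -0.49 to 0.16). Boll had 138, 167 and 134 CPM in F0_3NC and 127, 134 and 135 CPM in F0_5251KD, with a log2 fold change of -0.15 (interval -0.38 to 0.09). Pum2 had 92.3, 117 and 91.2 CPM against 88.6, 91.5 and 89.8 CPM. Its knockdown libraries were within 3 CPM of each other and below all 3 controls but for 1 value, the 91.5 CPM of replicate 2, which lay above the lowest control. In these 3 genes the higher control mean came from replicate 2. Without both libraries that stand apart the log2 fold change was 0.06 for Dazl, -0.03 for Boll and -0.02 for Pum2.

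Ybx2, which masks stored messages in spermatids, had 1866, 1312 and 2128 CPM in F0_3NC and 1966, 1896 and 1963 CPM in F0_5251KD. The knockdown values lay inside the range of the controls, and the log2 fold change was 0.13 (interval -0.20 to 0.47), or -0.03 without both libraries. Ybx3 had 1512, 1379 and 1533 CPM in F0_3NC against 1525, 1651 and 1538 CPM in F0_5251KD, a log2 fold change of 0.09 (interval -0.10 to 0.29). Cpeb2 gave the smallest difference, 462 ± 15 CPM in F0_3NC and 462 ± 28.7 CPM in F0_5251KD (SD, n = 3), and its interval of -0.17 to 0.17 bounds the log2 fold change. Cpeb1 had 14.6 ± 1.05 and 14.5 ± 0.817 CPM, with a wider interval of -0.32 to 0.30. Msi1 had 40.7, 29.1 and 42.7 CPM in F0_3NC and 39.5, 38.8 and 39.5 CPM in F0_5251KD, so its log2 fold change was 0.07 with all libraries and -0.08 without both that stand apart. Msi2 had 55.1 ± 3.94 CPM against 58.8 ± 0.914 CPM, a log2 fold change of 0.09 (interval -0.07 to 0.26).

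The comparison of F0_5251OV with F0_5NC asked the same of the virus made to raise lncRNA5251. Again 0 of the 9 genes passed the threshold (adjusted p from 0.57 to 0.946), and 0% of all genes did. Beside this count, 0 of 9 passed an unadjusted p of 0.05, against 8.77% of all genes, while DESeq2 called 30 genes of the table and no member. The log2 fold changes ran from -0.26 to 0.17, with a median of 0.09 beside 0 over all genes.

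Cpeb2 was the only member whose overexpression libraries were all above the controls. It had 364, 415 and 429 CPM in F0_5NC and 429, 460 and 470 CPM in F0_5251OV. The nearest values, 428.8 CPM in F0_5NC replicate 3 and 429.1 CPM in F0_5251OV replicate 1, were almost equal, and F0_5NC replicate 1, at 364 CPM, was far below the rest. The log2 fold change was 0.17 (SE 0.0795, unadjusted p = 0.0505, adjusted p = 0.57 by edgeR). In this comparison 7.33% of all genes had a non-overlapping, higher group, and 6.57% a lower one, so 1 of 9 is near the background. F0_5NC replicate 1 is also the library with the highest Sertoli marker level (1261 CPM), and without it the log2 fold change of Cpeb2 was 0.10 (adjusted p = 0.987 by edgeR). Over the 22 alternatives it stayed between 0.10 and 0.23, and none called Cpeb2.

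Msi1 had the largest difference in this comparison. It had 43.9, 40.2 and 36.2 CPM in F0_5NC and 28, 35.2 and 37.6 CPM in F0_5251OV, and the groups overlapped. The log2 fold change was -0.26 (SE 0.142, adjusted p = 0.604 by edgeR) and -0.15 without both libraries that stand apart. Dazl had 137, 118 and 127 CPM in F0_5NC against 163, 122 and 132 CPM in F0_5251OV, and Boll had 122, 129 and 139 CPM against 161, 122 and 130 CPM. Their log2 fold changes were 0.12 and 0.09, and without both libraries -0.02 and -0.05. Pum2 went from 0.11 to 0.00 and Ybx2 from -0.09 to 0.03 in the same way. Ybx3 had 1431, 1575 and 1482 CPM in F0_5NC and 1424, 1534 and 1795 CPM in F0_5251OV, where replicate 3 was the highest of all 12 libraries. Its log2 fold change was 0.08 (interval -0.11 to 0.28), or 0.14 without both libraries. Cpeb1 had a log2 fold change of 0.09 and Msi2 one of -0.02, with overlapping groups.

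The F0_3NC and F0_5NC groups had both received a control virus, not made to change lncRNA5251, so their comparison measured the difference between the control groups. A batch that follows the control virus cannot be told apart from it. None of the 9 genes passed the threshold (adjusted p from 0.379 to 0.931), at a background of 0.331% of genes called (54 of 16296). At an unadjusted p under 0.05 there was 1 of 9, against 11.9% of all genes. That gene was Cpeb2 again, with 468, 445 and 473 CPM in F0_3NC, all above the 364 to 429 CPM of F0_5NC. The log2 fold change was 0.20 (SE 0.0795, interval 0.03 to 0.37, adjusted p = 0.379 by edgeR), 0.21 (SE 0.0723) without both libraries that stand apart and 0.13 (adjusted p = 0.707 by edgeR) without F0_5NC replicate 1. A non-overlapping, higher group was found for 9.59% of all genes and a lower one for 7.41%. This comparison and the one before it share the F0_5NC libraries, in which Cpeb2 was lowest, with a mean of 403 ± 34.3 CPM against 453 ± 21.4 (F0_5251OV), 462 ± 28.7 (F0_5251KD) and 462 ± 15 CPM (F0_3NC). Dazl, Boll and Pum2 gave log2 fold changes of 0.23, 0.17 and 0.18, and without both libraries 0.00, 0.05 and 0.04.

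**Figure D3:**
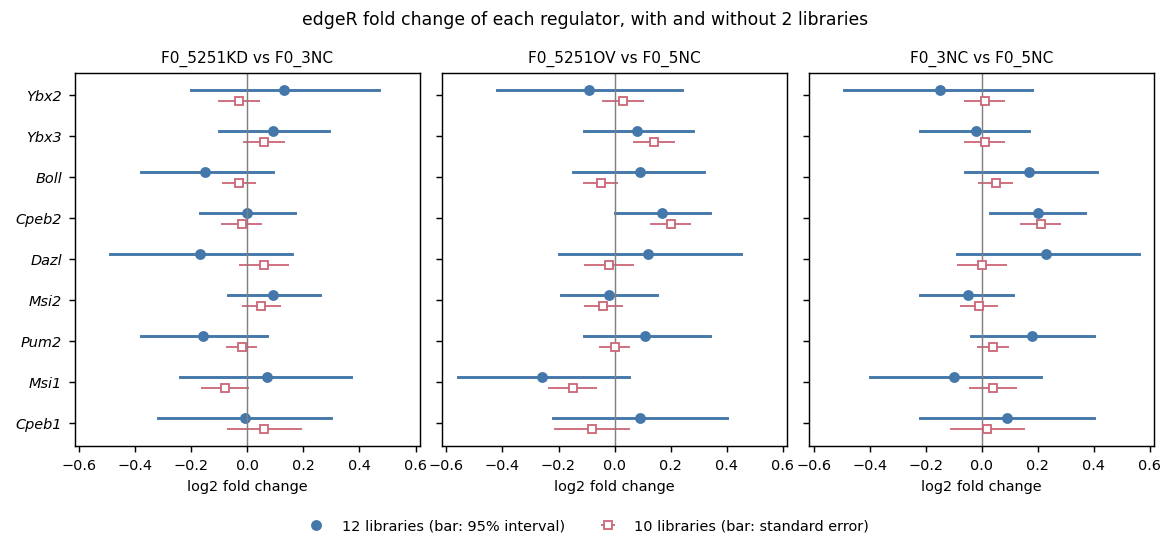
log2 fold change of each gene in 3 comparisons. Filled circles with 95% intervals are the fit of all 12 libraries, and open squares with standard errors are the fit of 10 libraries without F0_3NC replicate 2 and F0_5251OV replicate 1. The circles for Dazl, Boll, Pum2 and Ybx2 lie farther from 0 than the squares in all 3 panels, and Cpeb2 keeps its value (0.17 and 0.20 for the second and the third panel, 0.20 and 0.21 without both libraries).

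Whether knockdown and overexpression moved a gene differently was tested as the difference of both effects. No member was called (adjusted p from 0.476 to 0.982, background 0%, with 35 genes and no member by DESeq2), and none had an unadjusted p under 0.05, against 11.3% of all genes. Msi1 had the largest difference, 0.32 on the log2 scale (SE 0.2, interval -0.11 to 0.75), and Dazl the most negative, -0.29 (SE 0.214). Without both libraries that stand apart these were 0.08 for Msi1 and 0.09 for Dazl. The groups of the LV3 backbone were also set against those of the LV5 backbone. In that comparison 0.706% of all genes were called and 6.35% had an unadjusted p under 0.05, with 0 of 9 members by either rule, and the member differences lay between -0.04 and 0.11. A batch that follows the backbone cannot be told apart from it. For the immediate early genes, which respond within minutes to stress or handling, the summed level was 84.5 to 94.2 CPM in F0_3NC, 158 to 199 CPM in F0_5251KD and 15.5 to 28.9 CPM in the LV5 groups, and the part of this in the member values was not tested. In the test for any difference among the 4 groups, 0.454% of all genes were called and 7.62% had an unadjusted p under 0.05, again with 0 of 9 members (adjusted p from 0.696 to 0.976).

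The genes that work with the 9 members were taken as a list of 68, of which 66 passed the filter on low counts (Nanos2 and Eif4e1b did not). It holds 8 family paralogues and partners, 25 genes of the poly(A) tail and cap, 28 other RNA-binding proteins of germ cells and 7 known target messages. None was called in any comparison. In F0_5251KD against F0_3NC, 17 had a higher and 49 a lower estimate with a median log2 fold change of -0.07, and in F0_5251OV against F0_5NC 53 were higher and 13 lower with a median of 0.08, beside a median of 0 over all genes in both. Without both libraries that stand apart the knockdown comparison had 18 higher and 48 lower (median -0.03) and the overexpression comparison 39 higher and 27 lower (median 0.02). Cell type markers also leaned one way in these comparisons. In F0_5251KD all 8 spermatocyte markers had lower estimates than in F0_3NC (median -0.18, or 7 of 8 and -0.07 without both libraries). All 5 peritubular and all 5 endothelial markers had higher estimates there (medians 0.12 and 0.40, or 0.09 and 0.25 without both libraries). The Sertoli, Leydig, macrophage, spermatogonial and spermatid markers went both ways. In F0_5251OV all 8 Sertoli, 6 Leydig, 5 peritubular and 5 endothelial markers had lower estimates than in F0_5NC (medians -0.26, -0.29, -0.48 and -0.26). Without both libraries the medians were -0.22, -0.44, -0.47 and -0.29. None of these markers was called, and their part in the list values was not tested. Groups did not overlap for 1 higher and 7 lower genes of 66 in the knockdown comparison, where the background was 5.52% and 6.28% of all genes. In the overexpression comparison the numbers were 7 higher and 1 lower of 66, beside 7.33% and 6.57% of all genes. Between the controls they were 14 higher and 2 lower of 66, beside 9.59% and 7.41%. These counts without overlap were taken over all 12 libraries only. Of these 66 genes, 30 (45.5%) were highest in both libraries that stand apart and 7 (10.6%) lowest, against 14.1% and 14.3% of all genes.

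Rbm46 and Meioc, both needed for germ cells to go through meiosis, had the smallest p-values of the list for the difference of effects. Rbm46 had 67.5, 91.6 and 64.3 CPM in F0_3NC and 57.8, 58.1 and 66.6 CPM in F0_5251KD, and 58.8, 53.2 and 60.0 CPM in F0_5NC against 84.4, 59.9 and 64.9 CPM in F0_5251OV. Its log2 difference of effects was -0.57 (SE 0.203, unadjusted p = 0.0138, adjusted p = 0.403 by edgeR). Meioc had 290 CPM in F0_3NC replicate 2 and 283 CPM in F0_5251OV replicate 1 and 172 to 219 CPM in the other libraries, and its difference of effects was -0.63 (SE 0.227, adjusted p = 0.403 by edgeR). Without both libraries the difference of effects was -0.21 for Rbm46 (SE 0.116) and -0.21 for Meioc (SE 0.115), each with an adjusted p of 0.645 by edgeR. Both genes were thus highest in the libraries in which Dazl was highest. Paip2b, an inhibitor of the poly(A)-binding protein, had 77.6, 93.0 and 80.5 CPM in F0_3NC, 69.1, 74.7 and 73.6 CPM in F0_5251KD and 65.1, 71.0 and 71.6 CPM in F0_5NC. Its log2 fold change was -0.21 (SE 0.0874) in the knockdown comparison and 0.27 (SE 0.0875) between the controls, with adjusted p of 0.897 and 0.298 by edgeR, and without both libraries it was -0.11 and 0.18.

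The other genes named by the same rule, the 3 smallest p-values in each direction, had smaller or less certain differences. Against F0_3NC, the estimates in F0_5251KD were -0.23 for Ddx6 (a helicase of messages that are not translated), 0.12 for Fxr2, 0.16 for Sympk (a scaffold of polyadenylation) and 0.28 for Igf2bp1. Without both libraries that stand apart these were -0.10, 0.09, 0.05 and 0.31. Against F0_5NC, the estimates in F0_5251OV were 0.13 for Pabpc1, the poly(A)-binding protein, -0.44 for Bicc1, -0.28 for Tex19.1 and -0.14 for Fxr2 (0.09, -0.58, -0.27 and -0.07 without both libraries). Between the controls they were 0.17 for Caprin1, -0.18 for Fxr2, -0.24 for Tarbp2 and -0.38 for Bicc1 (0.13, -0.15, -0.13 and -0.44 without both libraries). For the difference of effects they were 0.26 for Fxr2, 0.55 for Bicc1, 0.51 for Igf2bp1 and -0.38 for Ptbp2, a splicing regulator, and without both libraries 0.15, 0.75, 0.53 and -0.12. Between the backbones they were 0.12 for Eif4g1, 0.44 for Igf2bp2, 0.12 for Paip2b, -0.12 for Tarbp2, -0.43 for Nanos3 and -0.05 for Khdrbs3. With all 12 libraries the adjusted p-values of these genes lay between 0.366 and 0.957 (edgeR).

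Among the messages known to be bound by the members, the synaptonemal complex gene Sycp1 had estimates of -0.30 (SE 0.181) in F0_5251KD and 0.23 (SE 0.181) in F0_5251OV against their controls, and of -0.09 and -0.05 without both libraries that stand apart. Tex19.1 had 8.33, 7.47 and 6.84 CPM in F0_5NC and 6.02, 6.59 and 6.07 CPM in F0_5251OV, so that the groups did not overlap. Its log2 fold change was -0.28 (SE 0.169, adjusted p = 0.63 by edgeR), -0.27 without both libraries, and -0.08 in the knockdown comparison. Sycp3, like Sycp1 a synaptonemal complex gene and a known target of Dazl, had -0.09 in the knockdown and 0.07 in the overexpression comparison. Without both libraries it had -0.02 and -0.05. Ddx4, a germ cell helicase and a known target of Dazl, had -0.12 (SE 0.0922) and 0.14 (SE 0.0923), and -0.03 and 0.05 without both libraries. The protamines Prm1 and Prm2 and the mitochondrial capsule gene Smcp have messages that are stored in spermatids. They had 0.04, 0.03 and -0.10 in the knockdown comparison and 0.09, 0.01 and 0.07 in the overexpression comparison. Without both libraries these were -0.01, -0.06 and -0.14, and 0.14, 0.07 and 0.06. With all 12 libraries the adjusted p-values of these 7 genes in both comparisons were at least 0.63 (edgeR). Translation, the step that these proteins act on, was not measured here.

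Whether the 9 genes varied together over the libraries was asked for all 36 pairs. With log2 CPM over 12 libraries, 13 pairs had an adjusted p under 0.05 for Pearson's r in a permutation test. Boll and Pum2 were the closest, with r = 0.97 and rho = 0.95, both with an adjusted permutation p of 3.60e-04, the smallest that the permutations can give here (1.00e-05 before adjustment). Without the 2 libraries farthest from the median of Boll, which are those that stand apart, r was 0.87, within the 6 LV3 libraries it was 0.99 and within the 6 LV5 libraries 0.97 (exact permutation p = 0.00694 in each). This was also the 1 pair of 36 past the threshold without both libraries (adjusted permutation p = 0.0349, n = 10). The spread of Boll and Pum2 over those 10 libraries was small, 122 to 139 and 84.7 to 93.7 CPM, and the relation there is across differences of that size.

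The other 12 pairs did not pass the threshold without these libraries, and by the rank measure rho only 3 of the 36 pairs passed it with them. Dazl and Ybx2 ran in opposite directions with r = -0.93 and rho = -0.78 (adjusted permutation p = 0.00576 and 0.0468), within the LV5 libraries r was -0.97 (exact permutation p = 0.00417) and within the LV3 libraries -0.91 (exact permutation p = 0.0556). Without both libraries r was -0.56 with an adjusted permutation p of 0.44. Dazl and Boll, the DAZ family relatives, had r = 0.86 and rho = 0.62 over 12 libraries (adjusted permutation p = 0.0208 and 0.19) and r = 0.29 without both. Dazl and Pum2 went from 0.87 to 0.11, Ybx2 and Pum2 from -0.92 to -0.01, and Pum2 and Msi1 from -0.89 to -0.41. Cpeb1 and Ybx2 had r = -0.72 and rho = -0.80 (adjusted permutation p = 0.0334 and 0.0468) and r = -0.65 without both (unadjusted permutation p = 0.0421, adjusted 0.44). Cpeb1 and Ybx3 had r = -0.71 and rho = -0.68 (adjusted permutation p = 0.0345 and 0.112), and r = -0.61 without both. Cpeb1 and Dazl had r = 0.69 and rho = 0.70 (adjusted permutation p = 0.0345 and 0.111), and r = 0.58 without both (adjusted permutation p = 0.44). These relations of Cpeb1 kept a similar size without these libraries but missed the threshold. The Y-box genes had r = 0.62 with each other (adjusted permutation p = 0.0856) and 0.26 without both, and the Musashi genes 0.39 (adjusted permutation p = 0.278) and -0.26. Cpeb2 had r between -0.26 and 0.51 to the other 8 genes, and these values include its lower level in F0_5NC. On residuals from the group means, r of Cpeb2 was -0.72 with Cpeb1 (adjusted permutation p = 0.024) and 0.67 with Ybx3 (adjusted permutation p = 0.0365). These p-values may be too small, since residuals within a group are tied to each other and the permutation ignored this. Without both libraries, on log2 CPM itself, r of Cpeb2 was -0.25 with Cpeb1 and 0.58 with Ybx3. It was 0.71 with Pum2 (unadjusted permutation p = 0.0223, adjusted 0.402).

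**Figure D4:**
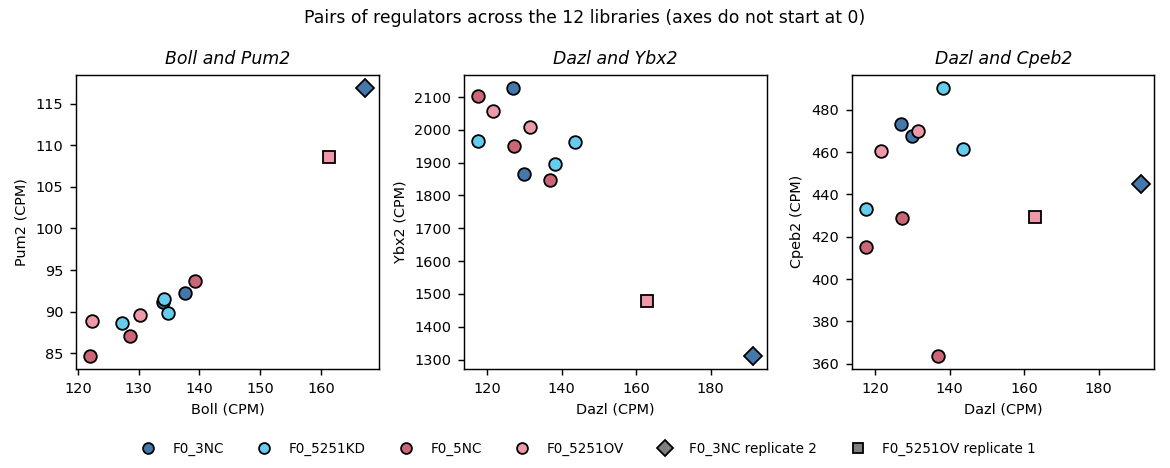
CPM of 3 pairs of genes, 1 point per library coloured by group (axes do not start at 0). Boll and Pum2 follow a line also below 140 and 95 CPM, Dazl and Ybx2 lie along a falling line with the diamond and the square at its end, and Dazl and Cpeb2 show no line (r = 0.00).

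For each member, the genes of the table with the most similar course over the 12 libraries were named, out of 11704 genes that averaged 5 CPM or more. They were Pde3b (r = 0.96) and Abca5 (0.95) for Dazl, Mbtd1 (0.98) and Naa15 (0.97) for Boll, and Ivns1abp and Mbtd1 (both 0.98) for Pum2. Ehmt2 and 1700003F12Rik (both 0.99) were the most similar to Ybx2, and Ccdc97 and Phc2 (both 0.96) to Msi1. For the genes that did not follow the libraries that stand apart they were C2cd3 and Rnf216 (both 0.94) for Cpeb2, Epm2aip1 (0.94) and Zfp106 (0.93) for Cpeb1, and Rpl7a (0.87) and Fbxo2 (0.82) for Msi2. For Ybx3 they were Lmf1 (0.93) and D430042O09Rik (0.92). Mbtd1 was thus named for both Boll and Pum2. These values are a description over 12 libraries, since the highest of many correlations is always high.

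Each gene has both an estimated count and an FPKM value, and the length by which the authors' table divides can be computed from both. The spread between the smallest and the largest length was 0.843% for Cpeb2 and 0.888% for Dazl. The median spread was 2.54% over the 11855 genes with over 50 counts in each library. Other members lay above it, with 2.58% for Ybx3, 2.63% for Pum2, 4.11% for Ybx2, 5.6% for Msi1 and 11.1% for Cpeb1. For Boll the implied length was 1728 bases in F0_3NC replicate 2 and 1706 bases in F0_5251OV replicate 1, and 1562 to 1618 bases in the other 10 libraries. The Boll spread of 10.6% was larger than that of 89.6% of genes. Thus the libraries with the most Boll RNA also had the largest implied length of Boll. This was not particular to Boll, since the same libraries lay outside the range of the rest for Ybx2, Msi1 and Dazl. Their lengths were 1388 to 1390 bases for Ybx2 (1414 to 1445 in the rest) and 2773 to 2774 for Msi1 (2627 to 2761). For Dazl they were 2816 to 2818 bases (2826 to 2841). The ranges overlapped for Cpeb1, Cpeb2, Ybx3, Pum2 and Msi2. The longest coding Boll transcript of GENCODE M21 has 1106 bases, which is shorter than the implied length in every library. The Boll 3′ UTR searched above comes from these GENCODE transcripts, so it may not be that of the message measured. The annotation behind the authors' table was not used here.

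For Msi2 the implied length followed neither group nor those libraries. It was 2771, 2823, 2739, 2864 and 2806 bases in F0_3NC replicate 2, F0_5251KD replicates 1 and 3, F0_5NC replicate 1 and F0_5251OV replicate 1, and 2458 to 2623 bases in the other 7 libraries. The spread of 16.5% was larger than that of 95.2% of genes, although the CPM of Msi2 varied least of the 9 genes (50.7 to 60.0 CPM). GENCODE M21 lists 3 coding Msi2 transcripts of 695 to 6436 bases. Msi1, with 1 coding transcript of 3133 bases, had implied lengths from 2627 to 2774 bases, and Cpeb1, with few counts, from 3436 to 3818 bases. FPKM and CPM of Boll, Msi2 and Cpeb1 therefore differ by these percentages between libraries, and counts per gene do not show which transcripts were present.

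**Figure D5:**
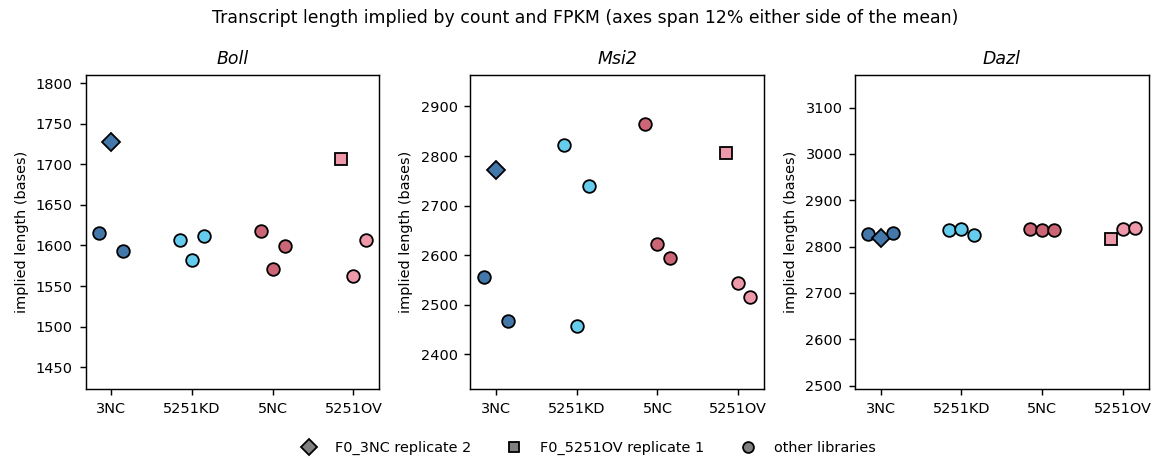
Transcript length implied by count, FPKM and library total for Boll, Msi2 and Dazl, 1 point per library (each vertical axis spans 12% either side of the gene's mean). The diamond and the square lie above all other libraries for Boll (1728 and 1706 bases), Msi2 has 5 libraries at 2739 bases or more and 7 at 2623 bases or less, and Dazl stays between 2816 and 2841 bases.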

How the data were processed

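Testis RNA of 12 libraries (4 groups of 3, as labelled) was analysed. Per the study's methods, messenger RNA was enriched with oligo(dT), primed with random hexamers, sequenced on an Illumina instrument and aligned with SOAPaligner 2.20; the build is mm10 per the labels, and no source used here names the quantifier. No strand step is named, so overlapping genes on opposite strands cannot be told apart. The table deposited by the authors covers 20718 genes and gives estimated counts, not normalized. Beside these, FPKM, scaled to transcript length and library total, was deposited for each library. Non-whole values made up 12% of the counts (tolerance 1e-06), and all counts of the 9 members were whole. A further 18 columns of per-sample values were not used.

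Rounded estimated counts were tested in 1 fit of all 12 libraries with edgeR 4.0.16 in R 4.3.3 (TMM factors 0.97 to 1.078, filterByExpr keeping 16296 genes, quasi-likelihood F test, two-sided, Benjamini-Hochberg adjustment, threshold 0.05, 8 residual degrees of freedom). The pooled-count test that the study's methods name ignores library-to-library variation and was not used. Permutation tests used 100000 resamples, or all arrangements within 6 libraries. Related genes were named by the 3 smallest p-values per direction, and similar genes by the 2 highest correlations. The members and lists were chosen with earlier results of these data known. The test was tried on simulated counts of 16171 genes for the knockdown comparison, where it found 1 of 50 genes altered 1.2-fold, 20 of 50 at 1.5-fold, 39 of 50 at 2-fold and 45 of 50 at 4-fold. Alternatives were DESeq2 1.42.0, other scalings and filters, limma 3.58.1 on log2(FPKM + 1) and log2(FPKM + 0.1), the 2 groups alone, a replicate block, leaving out each library, and, chosen after seeing the data, leaving out both libraries that stand apart. Coordinates of 3′ UTR sites come from GENCODE M21 (GRCm38). Intervals cover the spread between libraries.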

Additional observations from a re-analysis of the deposited data

How the results depend on the processing

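No member and no related gene was called under any alternative run, and the order of the 9 levels was the same by median FPKM and without each library in turn. The number of neighbouring pairs that differed stayed at 7, or at 8 without F0_3NC replicate 3, F0_5NC replicate 1 or F0_5NC replicate 2. The replicate numbers are shared by label only: over 18 same-numbered pairs of libraries the correlation of deviations from the group means lay between -0.30 and 0.21, with 2 above 0.1. With the replicate block 2 genes were called in the knockdown comparison instead of 4, 0 in the overexpression comparison and 50 between the controls, and none of them was a member.

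The counts over all genes moved more. DESeq2 called 20 genes in the knockdown comparison, 30 in the overexpression comparison, 138 between the controls, 35 for the difference of effects and 210 for any difference. In the knockdown comparison limma called 2 genes on log2(FPKM + 1) and 0 on log2(FPKM + 0.1). In the overexpression comparison 3 genes were called with no filter, at an adjusted p under 0.1 and with the libraries of these groups alone. For the difference of effects limma called 1 gene on log2(FPKM + 1), and between the backbones it called 73, or 74 on log2(FPKM + 0.1). Without each library in turn the counts ran from 0 (without F0_3NC replicate 1 or 3 or F0_5251KD replicate 3) to 7 (without F0_5NC replicate 1) in the knockdown comparison, from 0 to 1 in the overexpression comparison, from 30 (without F0_5NC replicate 3; 35 without F0_3NC replicate 2) to 68 between the controls and from 0 to 1 for the difference of effects. Without both libraries that stand apart, an alternative chosen after seeing the data, they were 0 for knockdown, 26 between the controls, 66 between the backbones and 35 for any difference, and 1 pair of members instead of 13 was related. On residuals from the group means 16 pairs passed the threshold, by a permutation that ignored the ties within a group, so this count may be too high.

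The members' fold changes, none of them called, kept their sign in 898 recomputed values and turned in 74. Without both libraries the sign turned in the knockdown comparison for Dazl and Cpeb1 (0.06 each), Ybx2 (-0.03) and Msi1 (-0.08), in the overexpression comparison for Dazl (-0.02), Boll (-0.05), Cpeb1 (-0.08), Ybx2 (0.03) and Pum2 (0.00), between the controls for Dazl (0.00), Ybx2 and Ybx3 (0.01 each) and Msi1 (0.04), and in the difference of effects for Dazl (0.09), Boll (0.03), Cpeb1 (0.14), Ybx2 (-0.06) and Ybx3 (-0.08). By another tool, scaling or filter it turned for values near 0 only: Cpeb2 under knockdown to 0.01 (DESeq2, no filter, at least 1 CPM), 0.02 (library totals, limma) and 0.00 (upper-quartile), Cpeb1 to 0.01 (limma) and 0.00 (library totals), and Msi2 between the backbones to 0.00. Without each library in turn the range that crossed 0 under knockdown was -0.27 to 0.05 for Dazl, -0.04 to 0.29 for Ybx2, -0.09 to 0.17 for Msi1, -0.06 to 0.04 for Cpeb1 and -0.05 to 0.04 for Cpeb2. Under overexpression it was -0.01 to 0.21 for Dazl, -0.04 to 0.17 for Boll, -0.07 to 0.21 for Cpeb1, -0.17 to 0.05 for Ybx2, -0.02 to 0.15 for Ybx3 and -0.07 to 0.02 for Msi2. Between the controls it was -0.31 to 0.02 for Ybx2, -0.20 to 0.06 for Msi1, -0.06 to 0.03 for Ybx3, -0.09 to 0.01 for Msi2 and 0.00 to 0.20 for Cpeb1. Between the backbones it was -0.12 to 0.05 for Ybx2, -0.02 to 0.15 for Dazl, -0.02 to 0.12 for Cpeb1, -0.02 to 0.10 for Pum2, -0.05 to 0.03 for Ybx3 and -0.02 to 0.03 for Msi2, and in the difference of effects -0.21 to 0.06 for Cpeb1 and -0.06 to 0.11 for Ybx3. The causes were not tested. With 3 libraries a group, a 1.2-fold change was seldom recovered in simulated counts, so small changes of the members cannot be seen at this size.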
